A study of Mus musculus with 24 samples.

Results

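The comparison described here set 3 wild-type Smchd1 (wt) mouse embryonic stem cell (mESC) lines at day 2.5 of differentiation against the same 3 lines at day 2, the 12 h over which Wnt signalling was switched on. It used 6 of the 24 poly(A) RNA sequencing libraries of the study, chosen by the genotype and day in their labels, and all 35591 genes of the count table. The study followed 3 wt lines and 3 lines heterozygous for a Smchd1 deletion (het) from day 0 to day 3 on the way to neuromesodermal progenitors, the cells of the embryo's tail end that give rise to spinal cord and trunk mesoderm, and the het lines served to ask whether having 1 working copy of this chromatin silencing gene alters Hox expression. All lines were male and came from separate blastocysts of a Castaneus Smchd1+/+ mother and a C57BL/6 father that was Smchd1 del/fl and carried the MMTV-Cre T/+ transgene, in which a mammary tumour virus promoter drives the recombinase. The wt lines had the genotype Smchd1 fl/+, so that they carried a floxed but undeleted paternal allele.

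Lines were derived in medium with 2i and LIF, which holds cells in naive pluripotency, and were moved stepwise towards serum medium with LIF before day 0. At day 0 the medium was replaced by N2B27 with bFGF, and at day 2 by N2B27 with bFGF and CHIR99021, an inhibitor of the kinase GSK3. The day 2.5 libraries therefore followed the addition of CHIR99021, a change of medium and further time in culture. No wt library was made at day 2.5 without CHIR99021, so these cannot be told apart. Because 2i also contains CHIR99021, the day 0 cells had met the inhibitor before, and are no Wnt-free reference.

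In the canonical Wnt pathway, β-catenin is held low by a destruction complex of Axin, APC, casein kinase 1 and GSK3, and inhibition of GSK3 lets it accumulate and bind Tcf and Lef factors on DNA. Among the first genes this switches on are inhibitors of the pathway itself, such as Axin2, Notum and the Dickkopf genes. In the mouse embryo the pathway is needed for the primitive streak and for the caudal epiblast, where T and the Cdx genes are expressed and Hox genes are activated in order.

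Library totals were 18.4 to 20.6 M (mega) counts at day 2 and 18.0, 7.10 and 16.7 M in lines 1, 2 and 3 at day 2.5, the day 2.5 library of line 2 being the smallest. Levels are given as counts per M counts (CPM) scaled by the trimmed mean of M-values. A level of 3 counts, taken as the smallest a library could show, was 0.146 to 0.179 CPM in 5 libraries and 0.422 CPM in line 2 at day 2.5. The first principal component of log2 CPM held 63.1% of the variance and separated the days, and the second held 12.7% and set line 1 apart from lines 2 and 3 on both days. Line 1 was also higher than the other lines over the 826 tested genes of chromosome 8, by a median of 0.22 on the log2 scale at day 2 and 0.26 at day 2.5, whereas no other nuclear autosome or X departed by over 0.13 in line 1.

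The edgeR quasi-likelihood test was made on 15540 genes that passed a filter on low counts, and genes with an adjusted p (Benjamini-Hochberg) below 0.05 were called. The p-values measure the spread between 3 lines. It called 4519 genes, 29.1% of those tested, of which 2269 (14.6%) were higher and 2250 (14.5%) were lower at day 2.5. The values of the 3 day 2 libraries and the 3 day 2.5 libraries did not overlap for 44.0% of the genes tested. A gene could pass the filter through its counts in 1 group alone, so a low gene that passed in this way had to differ between the days, and counts of members below are read against 14.6% and 14.5%.

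The changes were uneven in size. Of the called genes, 1206 (26.7%) moved by under 1.5-fold. More genes fell than rose by over 2-fold, 875 against 700. At the extreme the order turned, with 140 genes higher and 57 lower by over 8-fold, and 52 higher and 9 lower by over 32-fold. There were 21 tested genes with 0 counts in all 3 day 2 libraries, all called higher, and 6 with 0 counts in all 3 day 2.5 libraries, all called lower. Genes called lower had a longer annotated exonic length, taken over the exons of all transcripts of a gene. Its median was 5414.5 bases, against 3837 bases for genes called higher and 3893 bases for genes not called.

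**Figure D1:**
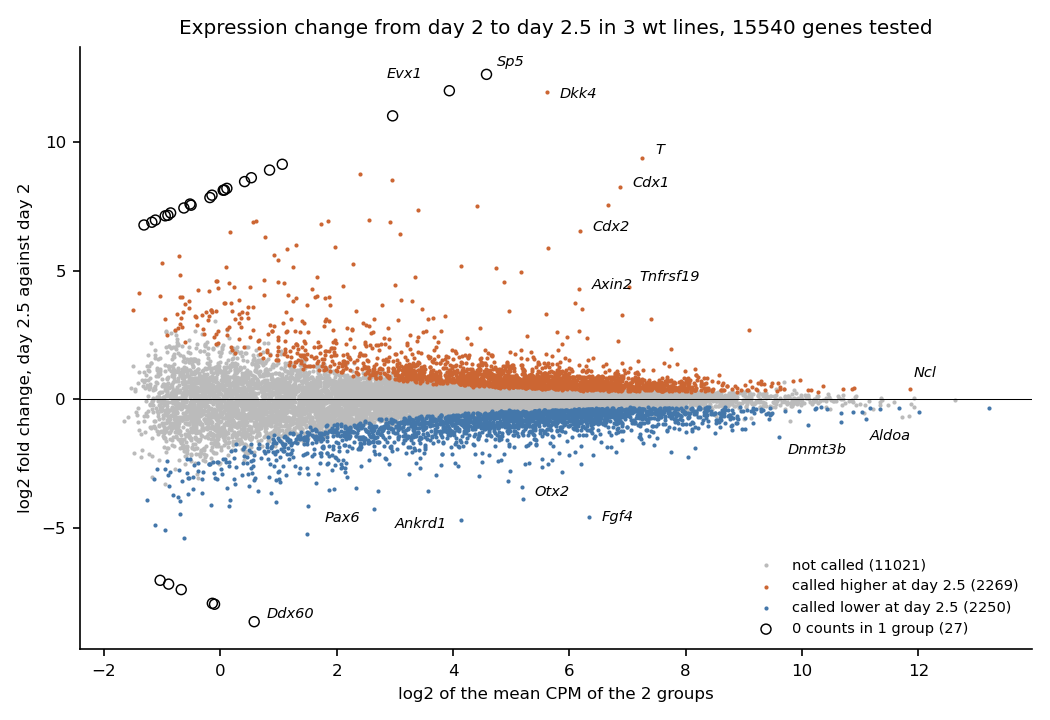
Change of each of the 15540 tested genes from day 2 to day 2.5 (y axis, log2 fold change) against its level (x axis, log2 of the mean CPM of both groups). Each point is a gene, coloured where called higher (2269 genes) or lower (2250 genes), and open circles mark the 27 genes with 0 counts in 1 group, whose fitted fold changes are not bounds. Sp5, Evx1, Dkk4 and T lie at the upper edge and Fgf4, Pax6 and Ankrd1 at the lower edge.

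The Wnt feedback and direct target genes rose most widely among the lists of pathway components. Of 24 listed, 23 passed the filter, and 17 of these (73.9%) were called higher and 0 lower, with a median log2 fold change of 3.23 against 0.00 over all genes tested. In the alternative fits, apart from a test against a minimum fold, 15 to 18 were higher and 0 lower. In bulk RNA, more cells that express a gene and more RNA per cell cannot be told apart.

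Sp5, a zinc finger transcription factor induced by β-catenin (GRCm38 chromosome 2, 70474923 to 70477729, plus strand), had 0 counts in all 3 day 2 libraries and 59.0, 46.4 and 37.6 CPM in lines 1, 2 and 3 at day 2.5. It was at least 934-fold higher, taking 3 counts over the day 2 group as the floor. Dkk4, a secreted Wnt inhibitor (chromosome 8, 22624043 to 22627547, plus strand), had 1 count in all at day 2 and 105, 100.4 and 88.3 CPM at day 2.5. Its count ratio was 5730.2, with an exact 95% interval of 1028 to 226387 that covers counting error only. These genes were thus at or near 0 in every line at day 2 and were read in every line at day 2.5. T, the Brachyury transcription factor of the primitive streak, was at 0.299, 1.07 and 0 CPM at day 2 and at 452, 277 and 187 CPM at day 2.5 (log2 fold change 9.40 ± 0.52 (SE), adjusted p = 1.07e-07).

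Axin2, the scaffold of the destruction complex that serves as a standard reporter of the pathway (chromosome 11, 108920349 to 108950783, plus strand), stood at 8.81, 6.17 and 5.70 CPM at day 2 and rose to 197, 113 and 101 CPM, a log2 fold change of 4.31 ± 0.27 (SE) with adjusted p = 2.36e-07. Tnfrsf19, a receptor also known as Troy (chromosome 14, 60963875 to 61046490, minus strand), went from 8.12, 16.7 and 11.3 CPM to 297, 253 and 195 CPM (4.37 ± 0.24, adjusted p = 1.07e-07). In both genes the lowest day 2.5 library was many times the highest day 2 library, and line 1 was the highest at day 2.5. Cdx1, a caudal homeobox gene, rose from 0.644 to 0.900 CPM at day 2 to 160.1 to 312 CPM at day 2.5 (8.26 ± 0.29, adjusted p = 9.07e-10).

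The promoter sequences of 3 of these genes are shown with the motif bound by Tcf and Lef factors. Sp5 and Tnfrsf19 were picked because a window of theirs held the motif, so its presence in them is no result. Axin2 was added whether or not its window held the motif. Each is the 250 bases before the RefSeq start on GRCm38.p6, written 5′ to 3′ on the strand of the gene, with capitals marking CTTTGAT or its reverse complement ATCAAAG where found. Sp5 lies at chr2:70474673-70474922 (plus strand), Tnfrsf19 at chr14:61037988-61038237 (minus strand) and Axin2 at chr11:108920099-108920348 (plus strand).
Sp5: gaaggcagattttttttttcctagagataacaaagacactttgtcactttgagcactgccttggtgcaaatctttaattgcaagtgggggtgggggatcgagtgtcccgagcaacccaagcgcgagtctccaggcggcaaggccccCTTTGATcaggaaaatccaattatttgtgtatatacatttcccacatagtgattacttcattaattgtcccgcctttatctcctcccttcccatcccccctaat
Tnfrsf19: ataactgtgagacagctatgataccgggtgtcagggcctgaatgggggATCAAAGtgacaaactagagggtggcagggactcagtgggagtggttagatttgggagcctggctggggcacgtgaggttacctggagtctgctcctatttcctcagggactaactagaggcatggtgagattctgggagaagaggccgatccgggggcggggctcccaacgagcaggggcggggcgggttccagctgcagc
Axin2: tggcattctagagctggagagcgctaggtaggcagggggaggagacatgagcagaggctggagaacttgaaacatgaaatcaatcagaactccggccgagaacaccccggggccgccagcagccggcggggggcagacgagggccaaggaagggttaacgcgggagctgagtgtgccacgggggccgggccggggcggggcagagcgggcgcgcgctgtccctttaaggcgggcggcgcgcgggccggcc

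The motif lay 104 to 98 bases before the start in Sp5 and 202 to 196 bases before it in Tnfrsf19, and these letters were not in the Axin2 window. The Tnfrsf19 start is 1 of 2 in RefSeq and lies inside the annotated gene, and the window of the other start did not hold the motif. The following shares rest on windows from 250 bases before to 50 after the start, any window of a gene with several starts being enough. Of the 17 target genes called higher, 10 had a promoter window and 2 of these (20.0%) held the motif. Over all genes tested with a window, 3.1% held it, as did 67 of 1746 genes called higher (3.84%) and 41 of 1700 called lower (2.41%). Among genes called higher by over 4-fold it was in 9 of 148 windows (6.08%), and among those lower by over 4-fold in 5 of 139 (3.6%). These shares describe the windows and say nothing of whether a factor was bound there.

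Other feedback inhibitors rose by differing amounts. Nkd1, an inhibitor of the Dishevelled proteins, went from 5.92, 5.20 and 4.75 CPM to 88.0, 49.6 and 34.6 CPM (3.44 ± 0.30, adjusted p = 6.27e-06). Dkk1, a secreted antagonist of the Lrp co-receptors, went from 0.697 to 1.25 CPM to 10.8 to 14.8 CPM. Notum, a secreted enzyme that removes the lipid from Wnt ligands, rose to 11.2 to 20.7 CPM from under 1 CPM, though 38.1% of its exonic bases are shared with antisense genes and the counting was not stated to use strand. Znrf3, which clears Frizzled receptors from the membrane, rose by only 0.88 ± 0.18 (SE) on the log2 scale, and its partner Rnf43 was not called (0.11 ± 0.51). Lef1, often used as a target, was at 62.0, 95.2 and 46.1 CPM at day 2 and 107, 90.6 and 74.0 CPM at day 2.5. These groups overlapped, and Lef1 was not called (0.42 ± 0.22, adjusted p = 0.173), but it was with the line as a block (adjusted p = 0.0381), without the day 2 library of line 2 and with no filter beyond 1 count. Ccnd1, encoding cyclin D1, was at 102 to 121 CPM at day 2 and 111 to 162 CPM at day 2.5 and was not called (0.31 ± 0.14). It was called higher in one fit of all 24 libraries and without the day 2.5 library of line 3. Nkd2, Kremen1 and Zcchc12 were not called either. The calls of Apcdd1, Tcf7 and Lgr5 were lost in fits that left out a line.

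**Figure D2:**
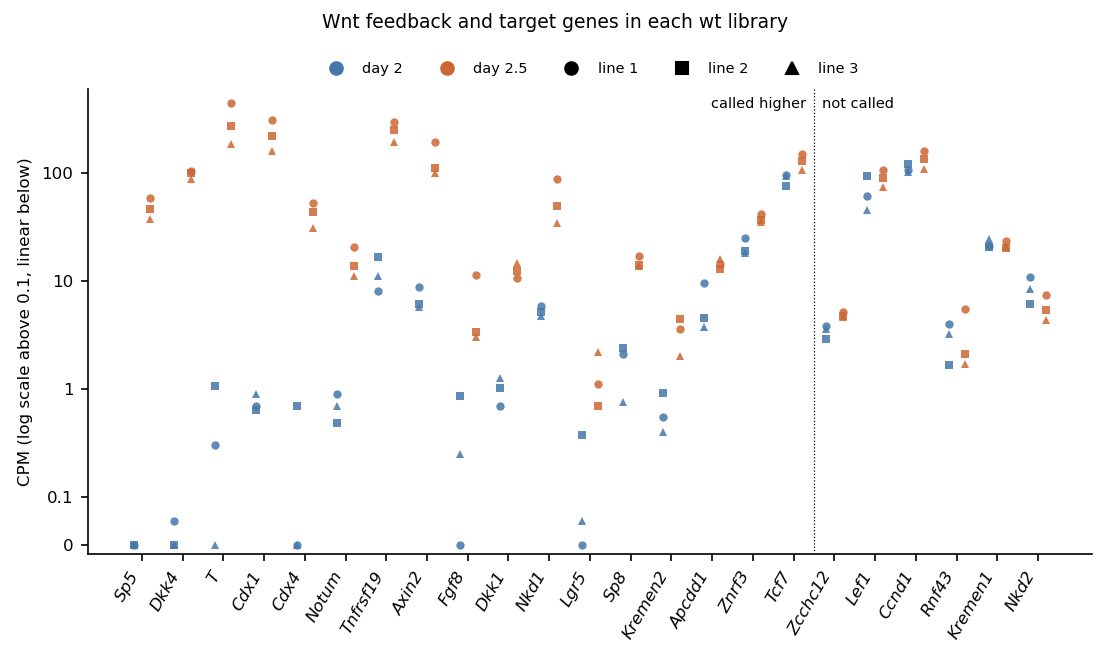
Level of the 23 tested Wnt feedback and target genes in each wt library (y axis, CPM, on a log scale above 0.1 and linear below), with genes along the x axis, day 2 in blue, day 2.5 in orange and the 3 lines by symbol. The dotted line separates the 17 genes called higher, whose day 2 and day 2.5 points lie apart, from the 6 not called, among them Lef1 and Ccnd1.

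Among the ligands, 11 of 19 Wnt genes passed the filter, of which 6 were higher and 1 lower. Wnt8a, a ligand of the early streak, was at 4.48, 15.7 and 8.75 CPM at day 2 and 153, 129.7 and 101 CPM at day 2.5 (3.73 ± 0.33, adjusted p = 7.66e-06). Wnt5b, a ligand that mostly acts outside the β-catenin branch, rose from 1.88 to 2.49 CPM to 47.7 to 88.3 CPM (4.97 ± 0.26, adjusted p = 6.13e-08). Wnt3 and Wnt3a, ligands of the streak and tail bud, rose to 4.78 to 11.0 CPM and 1.95 to 6.71 CPM, and Wnt6, at 0 counts in all day 2 libraries, was at least 81.9-fold higher. Wnt5a also rose, a call lost without line 2. Wnt9a fell from 5.98 ± 1.65 to 1.35 ± 0.620 CPM (SD, n = 3). Only 3 ligands were called higher with a minimum mean of 50 counts, because the rest were then not tested.

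The receptors did not move one way, with 4 higher and 7 lower of 19 tested of 23 listed. Fzd10 rose from 1.24, 1.66 and 2.05 CPM to 136, 88.8 and 67.1 CPM (5.88 ± 0.29, adjusted p = 5e-08). Fzd7, a further Frizzled receptor gene, did the opposite and fell from 203, 156 and 177 CPM to 38.8, 43.6 and 48.5 CPM (-2.03 ± 0.14, adjusted p = 7.02e-07). Fzd2, Fzd3 and Fzd5 fell as well, by 0.58 to 1.48 on the log2 scale. Ror2 and Ptk7, co-receptors of the planar cell polarity branch, rose by 1.85 ± 0.23 and 1.40 ± 0.21, Ptk7 to 208 to 415 CPM. The R-spondin receptor gene Lgr5 had 0, 7 and 1 counts at day 2, at most 0.375 CPM, and then stood at 1.10, 0.699 and 2.18 CPM (3.23 ± 1.02, adjusted p = 0.0298), a call lost without line 1 or line 3. The related receptor Lgr4 and the co-receptors Lrp5 and Lrp6 fell by 0.45 to 0.59. The call of Lrp5 was lost in 10 of 20 alternatives, limma voom and thinned counts among them, and those of Lgr4 and Lrp6 without line 2 or line 3. The count of lower receptors rested on single lines, being 3 without line 2 or without line 3, and 4 without the day 2.5 library of line 2.

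Inside the cell, the RNAs of the pathway gave calls in both directions. Of 30 genes of the destruction complex and its Tcf partners, all tested, 7 were higher (23.3%) and 3 lower (10%). Their median log2 fold change was -0.06, and 0 were called in the test against a fold of 2. Without line 2 the counts were 0 and 2, and without line 3 they were 3 and 3. The lower genes were 5 with DESeq2, with the edgeR exact test and without the day 2.5 library of line 3, and 6 with thinned counts or all 24 libraries in one fit. Ctnnb1, which encodes β-catenin, was at 672 to 739 CPM at day 2 and 746 to 838 CPM at day 2.5 and was not called (0.15 ± 0.10, adjusted p = 0.286), nor were Apc (-0.05 ± 0.11) and Gsk3b (-0.37 ± 0.13, adjusted p = 0.0538). Gsk3b was called lower in 6 of 20 alternatives, DESeq2 and the edgeR exact test among them. Tcf7l1, the Tcf family member that acts mostly as a repressor in mESCs, fell from 30.2 to 33.6 CPM to 14.3 to 17.0 CPM (-1.04 ± 0.17, adjusted p = 0.000718), while Tcf7 rose by 0.54 ± 0.15. Of 7 tested extracellular inhibitors outside the target list, of 14 listed, Tpbg was higher and Sfrp1 and Shisa2 were lower, with 4 lower by the edgeR exact test and in one fit of all 24 libraries. The call of Tpbg was lost whichever line was left out, and that of Shisa2 without line 2 or the day 2 library of line 1. Sfrp1, a secreted Wnt-binding protein, fell from 29.2 to 33.7 CPM to 11.7 to 12.4 CPM.

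Caudal epiblast genes rose almost without exception among those tested. Of 24 listed, 20 passed the filter and 19 were higher and 0 lower, with a median log2 fold change of 4.50 and 17 to 19 higher in the alternatives other than the test against a minimum fold. Several of these genes also stand in the Wnt target list. Cdx2 (GRCm38 chromosome 5, 147300805 to 147307270, minus strand), a homeobox factor of the posterior embryo, went from 1.59, 1.66 and 1.30 CPM to 177, 146 and 107 CPM (6.56 ± 0.23, adjusted p = 9.07e-10). Nkx1-2, a homeobox gene of the caudal lateral epiblast, went from at most 2.36 CPM in any line to 260.3, 201 and 147 CPM (7.56 ± 0.42, adjusted p = 1.11e-07). Both genes were highest in line 1 and lowest in line 3 at day 2.5, as were T, Cdx1 and Axin2.

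Evx1, a homeobox gene of the streak, had 0 counts in every day 2 library and 44.4, 27.8 and 19.7 CPM at day 2.5, at least 599.6-fold higher. Its antisense neighbour Evx1os was at least 305-fold higher, and because the genes overlap on opposite strands their reads may not be fully separable. Grsf1, an RNA-binding protein gene already read at day 2, was at 153, 130.0 and 155 CPM at day 2 and 1078, 934 and 813 CPM at day 2.5 (2.69 ± 0.13, adjusted p = 4.54e-08). Fgf8, a growth factor of the streak and tail bud, was at 0, 0.858 and 0.250 CPM and then at 11.5, 3.36 and 3.01 CPM (4.03 ± 0.82, adjusted p = 0.00288), so that line 1 alone was above 10 CPM. The related Fgf17 lost its call with the line as a block (adjusted p = 0.0808) and in each fit without a line, and Fgf3 was not called. Gbx2 rose by 1.78 ± 0.24, but 43.5% of its exonic bases are shared with an antisense gene.

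The streak and mesendoderm list was more mixed, with 7 higher and 3 lower of 17 tested of 24 listed. The higher genes were 10 without line 1 or without its day 2.5 library, and 9 with the line as a block. The lower genes were 2 to 4 in the alternatives other than the test against a minimum fold. Kdr, a receptor gene among the lower ones, lost its call in 12 of 20 alternatives. Mixl1, a homeobox gene of the streak, rose from 0 to 0.322 CPM to 13.9 to 33.2 CPM (7.37 ± 0.62, adjusted p = 4.18e-06). Eomes, a T-box factor of anterior streak and endoderm, only went from 7.78 to 8.25 CPM to 14.3 to 18.3 CPM (1.07 ± 0.22, adjusted p = 0.00266). Fst, which encodes the activin antagonist follistatin, rose from 15.0, 48.5 and 40.6 CPM to 306, 312 and 289.9 CPM. The Nodal co-receptor gene Tdgf1 and the Notch ligand gene Dll1 fell, by 0.92 and 1.96 on the log2 scale. Foxa2 was not called (0.91 ± 0.45, adjusted p = 0.149), but was with the line as a block (adjusted p = 0.0269), without line 1 or its day 2.5 library, and with no filter beyond 1 count. Tbx6 and Msgn1, which mark paraxial mesoderm, were not tested at 0 to 9 and 0 to 17 counts per library.

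Of 39 Hox genes, 24 passed the filter, and 17 were called higher and 0 lower, with 15 not tested. The count was 12 to 16 in the fits that left out libraries and 6 where a mean of 50 counts was required. Hoxb1, an anterior Hox gene of the caudal epiblast, was at 2.84, 2.25 and 2.05 CPM at day 2 and 78.5, 48.5 and 41.8 CPM at day 2.5 (4.56 ± 0.27, adjusted p = 1.95e-07). Hoxb9, near the other end of the cluster, was at 0.249, 0.483 and 0 CPM and then 11.8, 9.65 and 6.97 CPM (5.26 ± 0.61, adjusted p = 6.74e-05). Hoxc5 was at 0 counts in all day 2 libraries and at least 70.4-fold higher. Hoxb4 rose by only 1.31 ± 0.42 (SE), a call lost without either of lines 2 and 3. Hoxb7 lost its call with the line as a block (adjusted p = 0.0533) and whichever line was left out.

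Levels of different Hox genes were compared per length, in the deposited log2 RPKM values. Within the Hoxb cluster at day 2.5 the mean level was highest for Hoxb1, at 4.52 ± 0.48 (SD, n = 3), and next for Hoxb2, at 2.40 ± 0.59. Hoxb9 followed at 1.82 ± 0.39, above Hoxb6 and Hoxb8 at 0.69 each, Hoxb4 at 0.62 and Hoxb7 at 0.41. Hoxb3 stood at 0.27 and Hoxb5 at -1.60 ± 1.22. Hoxb6 and Hoxb8 were above Hoxb3 in each of the 3 lines, whereas Hoxb6, Hoxb8 and Hoxb4 differed by less than the SD of each. Hoxb1 was above every other member in each of the 3 lines. The reads of Hoxb2 and Hoxb3 may be shared with the antisense gene Hoxb3os. In the Hoxc cluster Hoxc4 (0.64 ± 0.20) and Hoxc5 (0.17 ± 0.36) were well above Hoxc6 (-2.32 ± 0.75) and Hoxc8 (-2.08 ± 0.40), and Hoxc6 was not tested at 0 to 13 counts per library.

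Genes of the formative and primed epiblast mostly fell, with 1 higher and 14 lower of 21, all tested. Fgf4, which stands in the naive and Fgf ligand lists and not in this one, encodes the main Fgf ligand of pluripotent cells (GRCm38 chromosome 7, 144847367 to 144865243, plus strand). Its level fell from 179, 141 and 148 CPM to 6.60, 6.99 and 5.96 CPM (-4.59 ± 0.16, adjusted p = 9.07e-10). Otx2, a homeobox factor of epiblast and anterior brain (chromosome 14, 48657677 to 48673819, minus strand), fell from 79.1, 66.6 and 53.4 CPM to 6.49, 5.17 and 6.49 CPM (-3.43 ± 0.20, adjusted p = 1.42e-07). All 3 lines reached almost the same low level in both genes. Pou3f1, a POU factor of formative epiblast and neural fate, fell from 49.9 to 67.0 CPM to 4.89 to 7.10 CPM (-3.16 ± 0.20, adjusted p = 3.24e-07), and Zic2 and Zic5 fell by 2.15 and 2.09. Fgf5 fell from 7.02 to 15.0 CPM to 2.72 to 3.58 CPM. Etv4, an Ets factor induced by Fgf signals, was the member called higher (1.61 ± 0.17), and Nodal was not called (0.30 ± 0.28).

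Pluripotency factors did not fall together. In the naive list 2 of 19 were higher and 2 lower, all tested. With the line as a block or without the day 2 library of line 2 the lower genes were 4, and the higher genes were 4 without the day 2.5 library of line 1 and 1 without line 2. The fallen naive genes were Fgf4 and Tet2, and the risen ones were Tdh and Tbx3, the latter a call lost without line 2. Tdh, an enzyme of threonine breakdown, rose from 10.6, 10.7 and 14.2 CPM to 182, 116 and 110.2 CPM (3.53 ± 0.21, adjusted p = 2.06e-07). Nanog was at 58.6, 45.1 and 75.1 CPM and then at 70.4, 53.8 and 46.5 CPM, and Zfp42 stayed within 26.0 to 30.5 CPM in all 6 libraries, and neither was called. Of 13 core pluripotency genes 1 was higher and 7 lower, the latter 3 without line 2 and 4 without its day 2 library, and the former 0 in 7 of the 9 fits without a line or library. Pou5f1, encoding Oct4, was at 949, 728 and 741 CPM and then at 869, 710.5 and 534 CPM and was not called (-0.19 ± 0.16, adjusted p = 0.396). Dppa5a and Dppa4 fell by 0.95 ± 0.14 and 0.74 ± 0.16.

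Of 14 tested anterior and neural factors, of 32 listed, 7 were lower, 1 was higher (Gbx2) and 6 were not called. Pax6, a homeobox factor of neural progenitors, went from 19.6, 9.82 and 6.05 CPM to 0.660, 1.26 and 0.177 CPM (-4.28 ± 0.58, adjusted p = 0.000212). Sox1, an early neural factor, went from 9.16, 16.0 and 11.2 CPM to 1.27, 0.699 and 0.945 CPM (-3.57 ± 0.36, adjusted p = 2.24e-05). Nes, which encodes nestin, was not called (-0.37 ± 0.21). Without line 2 the list held 3 lower genes, and the calls of Irx3, Irx5 and Sox3 were among those lost.

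In the Fgf pathway the ligands and the feedback genes gave calls both ways. Of 12 tested ligands, of 22 listed, Fgf8 and Fgf17 were higher and Fgf4, Fgf5, Fgf11 and Fgf15 were lower. The call of Fgf17 was lost in 11 of 20 alternatives, among them limma voom, thinned counts and leaving out any one of the lines, which left Fgf8 as the higher ligand. Of 26 tested receptors and ERK feedback genes, of 28 listed, 6 were higher and 7 lower, the former 2 without line 2 or without line 3 and 3 without the day 2 library of line 3. Fgfr3 fell from 16.0, 25.4 and 28.1 CPM to 2.15, 2.94 and 3.84 CPM (-2.96 ± 0.30, adjusted p = 2.24e-05), and Dusp1, a phosphatase of stress and growth signalling, from 126, 82.9 and 100.4 CPM to 12.9, 15.9 and 15.4 CPM (-2.81 ± 0.18, adjusted p = 3.24e-07). Dusp6, a phosphatase of ERK, fell by 0.74 ± 0.13, while the feedback receptor Il17rd rose by 1.05 ± 0.15. Among 21 tested immediate early genes 3 were higher and 6 lower (1 higher without line 3, without its day 2 library or without the day 2.5 library of line 1). Egr1 rose by 1.87 ± 0.30 and Ier3 fell by 2.35 ± 0.19, and Fos was not called (-0.33 ± 0.68).

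The remaining signalling lists gave calls in both directions, and their counts rested on single lines. The BMP list, with 15.4% higher and 15.4% lower, and the Notch list, with 13.6% of each, were near the shares over all genes tested. Of 25 tested Nodal and activin genes 2 were higher and 5 lower (1 higher without line 1 or line 3 and 5 without the day 2 library of line 2, and 3 lower without line 2 or line 3), with Smad3 and the Smad corepressor gene Skil lower by 1.07 ± 0.19 and 0.96 ± 0.12. Of 26 tested BMP genes 4 were higher and 4 lower (2 higher and 1 lower without line 2, and 2 lower without line 1 or line 3). Id3 and Msx1, targets of BMP signals, rose by 2.15 ± 0.37 and 2.65 ± 0.58, and the antagonist gene Nog fell from 2.24 to 5.25 CPM to 0 to 0.295 CPM. Of 22 tested Notch genes 3 were higher and 3 lower (1 higher without any one of the lines, and 6 lower without line 1), and Rbpj, the DNA-binding effector of the pathway, fell from 156, 109 and 117 CPM to 42.7, 39.4 and 52.1 CPM (-1.51 ± 0.16, adjusted p = 3.6e-05). Of 17 tested retinoic acid genes 5 were higher and 2 lower (2 higher without line 3 and 3 without line 2), with the receptor gene Rxrg higher by 1.37 ± 0.29 and the receptor gene Rarg lower by 1.29 ± 0.23. Of 14 tested Hedgehog genes 4 were higher and 3 lower (0 higher without line 3 and 1 without line 1), and Ptch1, the receptor, fell by 0.98 ± 0.14.

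Cadherin genes changed in opposite directions. Cdh2, encoding N-cadherin, rose from 4.13, 10.7 and 6.75 CPM to 43.4, 28.7 and 24.9 CPM (2.17 ± 0.31, adjusted p = 0.000311), and Cdh1, encoding E-cadherin, fell from 718, 555 and 561 CPM to 399.9, 313 and 263 CPM (-0.91 ± 0.15, adjusted p = 0.000852). Neither gene's groups overlapped, and Cdh1 lies on chromosome 8, where line 1 was high. In the list of epithelial-mesenchymal transition genes 5 were higher and 8 lower of 26 tested of 30 listed (5 lower without line 2). Vim, encoding vimentin, and Zeb2, a repressor of E-cadherin, rose by 1.14 ± 0.18 and 1.28 ± 0.28, and the epithelial genes Epcam, Esrp1 and Crb3 fell by 0.98 to 1.72. The claudin genes Cldn4 and Cldn7 fell by 0.99 ± 0.19 and 1.10 ± 0.18, and the other 9 tested genes of their list of claudins and keratins were not called.

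Of 33 tested contractile and Yap target genes, of 34 listed, 4 were higher and 12 lower, the former 2 without line 1 or without line 2 and the latter 6 without line 2 and 7 without line 3. Ankrd1, a Yap target, fell from 30.3, 18.8 and 52.9 CPM to 0.770, 0.839 and 2.13 CPM (-4.70 ± 0.44, adjusted p = 1.28e-05). Ccn1 and Ccn2, further Yap targets, fell by 1.26 ± 0.19 and 2.54 ± 0.23, the latter with 23.2% of its exonic bases shared with an antisense gene. Line 3, the highest for Ankrd1 at day 2, was also the highest at day 2.5. Actc1, a muscle actin gene, rose by 3.11 ± 0.50 to 3.31 to 5.28 CPM, and Zyx, which encodes the focal adhesion protein zyxin, rose by 0.89 ± 0.19. Of 20 tested ephrin and Eph genes 6 were higher and 4 lower. Epha5, a receptor gene with 0, 0 and 1 counts at day 2, was at 2.70, 1.82 and 2.13 CPM at day 2.5 (adjusted p = 0.000456), a ratio of 136 with a 95% interval from 23.9 to 5433 for counting error only. Its call held in all 19 alternatives in which it was tested. Epha1 rose from 81.5, 91.9 and 90.0 CPM to 436, 318 and 279 CPM (1.97 ± 0.15, adjusted p = 2.6e-06), and Epha2 by 1.49 ± 0.20, while Ephb3 fell by 1.39 ± 0.18.

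Calls among hypoxia-inducible factor targets and glycolysis genes were mostly lower. Of 19 tested hypoxia targets, of 20 listed, 2 were higher and 12 lower. Adm, encoding the peptide adrenomedullin, fell from 59.4, 38.6 and 45.8 CPM to 11.2, 8.53 and 12.5 CPM (-2.14 ± 0.21, adjusted p = 1.67e-05), and Ndrg1 fell from 213, 116 and 168 CPM to 35.8, 45.6 and 54.8 CPM. Of 26 glycolysis genes, all tested, 2 were higher and 13 lower, the latter 8 without line 2 or without line 3. Eno2, an enolase, fell from 97.4, 46.8 and 92.7 CPM to 11.1, 14.1 and 13.6 CPM (-2.62 ± 0.25, adjusted p = 1.38e-05). Aldoa, an aldolase, fell from 3068, 2352 and 2856 CPM to 1949, 1517 and 1436 CPM (-0.76 ± 0.13). Pkm was not called (-0.31 ± 0.12, adjusted p = 0.0749), but was called lower in 6 of 20 alternatives, among them the line as a block (adjusted p = 0.0371) and the fit without line 1. Pdk1 and the glucose transporter gene Slc2a1, which belong to both lists, were higher, by 0.54 ± 0.11 and 0.36 ± 0.12. The call of Slc2a1 was lost whichever line was left out and that of Pdk1 without line 2, so that without line 2 neither list held a higher gene. Txnip, which restrains glucose uptake, fell from 479, 463 and 415 CPM to 121, 132 and 113 CPM (-1.89 ± 0.11, adjusted p = 2.1e-07).

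Of 26 cholesterol synthesis and uptake genes, all tested, 3 were higher and 11 lower, the latter 5 or 6 in each of 5 fits without a line or library. Srebf2, the transcription factor of the pathway, fell from 466, 371 and 459 CPM to 289, 208 and 219.9 CPM (-0.85 ± 0.14, adjusted p = 0.000768). Nsdhl and Ebp, enzymes of later steps, rose by 0.73 ± 0.12 and 0.73 ± 0.19, the call of Ebp being lost without line 1 or line 2.

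Ribosome biogenesis genes rose by small amounts, with 24 higher and 0 lower of 34, all tested, and a median log2 fold change of 0.58. Nop2, a methyltransferase of ribosomal RNA, went from 109, 135 and 123 CPM to 346, 282 and 266 CPM (1.29 ± 0.13, adjusted p = 2.36e-05). Noc4l and Wdr74, further assembly factors, rose by 1.10 ± 0.14 and 0.98 ± 0.13. Npm1 was not called (0.06 ± 0.10). The cytosolic ribosomal protein genes did not share this, with 1 higher (Rpl7l1) and 0 lower of 83 and a median of -0.01, although 7 were higher and 1 lower without line 1.

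Cell cycle genes fell in the mitotic list, where 0 were higher and 14 lower of 24, all tested, the latter 7 without line 3 and 9 without the day 2 library of line 1. Top2a, encoding the topoisomerase of dividing cells, fell from 1528, 1407 and 1465 CPM to 671, 748 and 775 CPM (adjusted p = 2.18e-05). Nusap1, a spindle protein gene, fell by 1.51 ± 0.16. In the list of G1 cyclins and CDK inhibitors 6 were higher and 4 lower of 25, all tested, the former 3 without line 3 and 10 in one fit of all 24 libraries. Ccnd2 and Ccne2, cyclin genes of G1, rose by 0.92 ± 0.18 and 0.73 ± 0.15, the call of Ccne2 being lost without line 3, and Ccnd3 and Rb1, the latter encoding the retinoblastoma protein, fell by 0.56 ± 0.13 and 1.29 ± 0.19. Cdkn1a, encoding the CDK inhibitor p21, rose from 45.1, 35.7 and 37.4 CPM to 219.7, 185 and 166 CPM (2.27 ± 0.15, adjusted p = 3.24e-07), whereas Cdkn1b, encoding p27, fell by 1.46 ± 0.18. Of 24 tested p53 target genes, of 25 listed, 10 were higher and 5 lower, the former 5 without line 2 or without line 3 and the latter 3 without line 1 or without line 2. Phlda3 rose from 18.0, 20.1 and 20.3 CPM to 104, 104 and 106 CPM (2.43 ± 0.13, adjusted p = 1.07e-07), and Sesn1 and Rrm2b fell by 1.01 ± 0.19 and 1.19 ± 0.22. Mdm2, encoding the main inhibitor of p53, was not called (-0.09 ± 0.15).

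Among stress and interferon genes, falls were the more frequent call. In the integrated stress response 2 were higher and 8 lower of 24, all tested, and 4 higher and 2 lower without line 2, 1 and 5 without line 3, and 5 higher without the day 2 library of line 2. Ddit3, encoding CHOP, fell by 1.37 ± 0.18, and Asns, an amino acid response gene, was not called (0.19 ± 0.10). Of 25 tested interferon response genes, of 36 listed, 1 was higher and 6 lower, the latter 3 in 5 fits without a line or library. Ddx60, a helicase gene on chromosome 8, was at 5.08, 2.20 and 1.70 CPM at day 2 and had 0 counts in all day 2.5 libraries, at least 42.2-fold lower. Oas3, an antiviral enzyme, fell from 5.63 to 11.9 CPM to 0.699 to 0.945 CPM.

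Chromatin genes included several of large change. Dnmt3b, a de novo DNA methyltransferase of the epiblast, fell from 1094, 1219 and 1139 CPM to 462, 409.9 and 372 CPM (-1.47 ± 0.11, adjusted p = 1.82e-06), and Dnmt3a and Dnmt3l fell by 1.06 ± 0.15 and 1.23 ± 0.14. The demethylase genes divided, with Tet1 and Tet2 lower by 1.77 ± 0.13 and 1.72 ± 0.21 and Tet3 higher by 1.43 ± 0.21. In the list of DNA methylation genes 2 were higher and 6 lower of 19, all tested (1 higher without line 2 or line 3). Of 32 Polycomb subunit genes, all tested, 4 were higher and 11 lower, the former 2 without line 1 or line 3 and the latter 5 to 8 when 1 line was left out. Jarid2 and Phc1 fell by 1.14 ± 0.13 and 1.30 ± 0.12, and Epop rose by 0.87 ± 0.11. Smchd1 itself was read in all libraries, at 189, 218 and 196 CPM at day 2 and 125, 135 and 154 CPM at day 2.5 (-0.54 ± 0.12, adjusted p = 0.00474), a call lost without line 2.

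**Figure D3:**
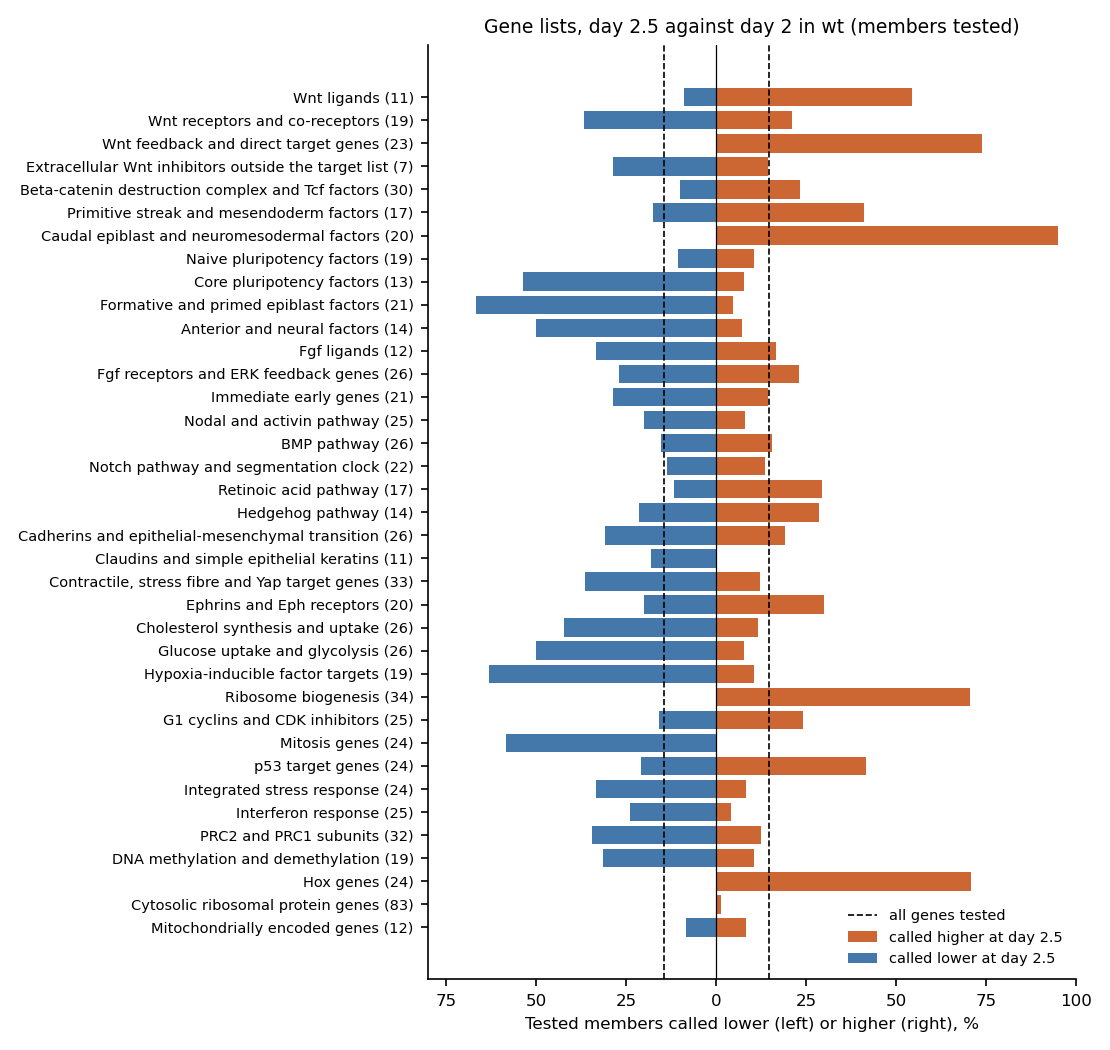
Share of the tested members of each gene list that was called higher (right, orange) or lower (left, blue) at day 2.5, on an x axis in percent, with the number tested beside each name. Dashed lines mark the shares over all genes tested, 14.6% higher and 14.5% lower. The caudal epiblast, Wnt target, Hox and ribosome biogenesis bars extend only to the right, and the mitosis bar only to the left.

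The label of the lines was compared with markers of the cell types they could hold. All 8 caudal epiblast markers were called higher, and their summed level went from 3.09, 6.60 and 3.10 CPM in lines 1, 2 and 3 at day 2 to 1322, 929 and 664 CPM at day 2.5. Of these markers 2, Sp5 and Evx1, had 0 counts in all day 2 libraries, passed the filter through day 2.5 alone and could only be called higher. Sp5, Evx1 and T also stand in the caudal and streak lists above, so these calls are not separate from those. Of 7 epiblast-like markers 5 were called lower, and the sum went from 2130 to 2355 CPM to 1017 to 1477 CPM. Of 8 naive markers 1 was called higher, with sums of 80.7 to 102 CPM and then 104 to 121 CPM. Neural markers, with 4 of 11 tested lower, summed to 164 to 183 CPM and then 104 to 142 CPM.

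Parietal endoderm genes were read in all libraries and differed widely between lines. The 18 parietal endoderm markers summed to 8949, 13183 and 18302 CPM at day 2 and to 6376, 10378 and 16290 CPM at day 2.5, lowest in line 1 and highest in line 3 on both days. Of these, 1 was called higher and 2 lower, and with the line as a block 4 and 6. Over the fits without a line or library the counts ran from 1 to 5 higher (5 without line 1 or its day 2.5 library) and from 0 to 5 lower (5 without the day 2.5 library of line 3). Lama1, a laminin chain, was at 1548, 2729 and 3813 CPM and then 929, 1944 and 3371 CPM and was not called (adjusted p = 0.474), but was called lower in 3 of 20 alternatives, namely with the block (adjusted p = 0.00644), without the day 2.5 library of line 3 and with no filter beyond 1 count. Pdgfra was not called either, but was called higher in 6 of 20, among them the block (adjusted p = 0.00171) and the fit without line 1. The visceral markers summed to 775, 1151 and 1391 CPM and then 465, 929 and 1347 CPM, of which Cubn alone gave 476, 705 and 892 CPM at day 2, and the defining genes Afp, Ttr and Apoa1 had at most 22 counts in any library. Cubn was not called, but was called lower in 5 of 20 alternatives, among them the block and the fit without line 1. Line 1, lowest for the parietal and visceral endoderm sums on both days, was the highest for T, Axin2, Cdx2 and Nkx1-2 at day 2.5, and the part of endoderm cells in these levels was not tested. Definitive endoderm markers summed to 134 to 215 CPM and then 378 to 402 CPM, and 1 of 8 tested was called higher, Trh, from 14.5, 33.2 and 18.6 CPM to 307, 227 and 119 CPM. Trophoblast markers, of which Cdx2 and Eomes are 2, had 3 higher and 1 lower of 12 tested. The lower gene, Gata3, lost its call in 11 of 19 alternatives, and the higher gene Plac1 lost its call without line 2 or line 3.

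**Figure D4:**
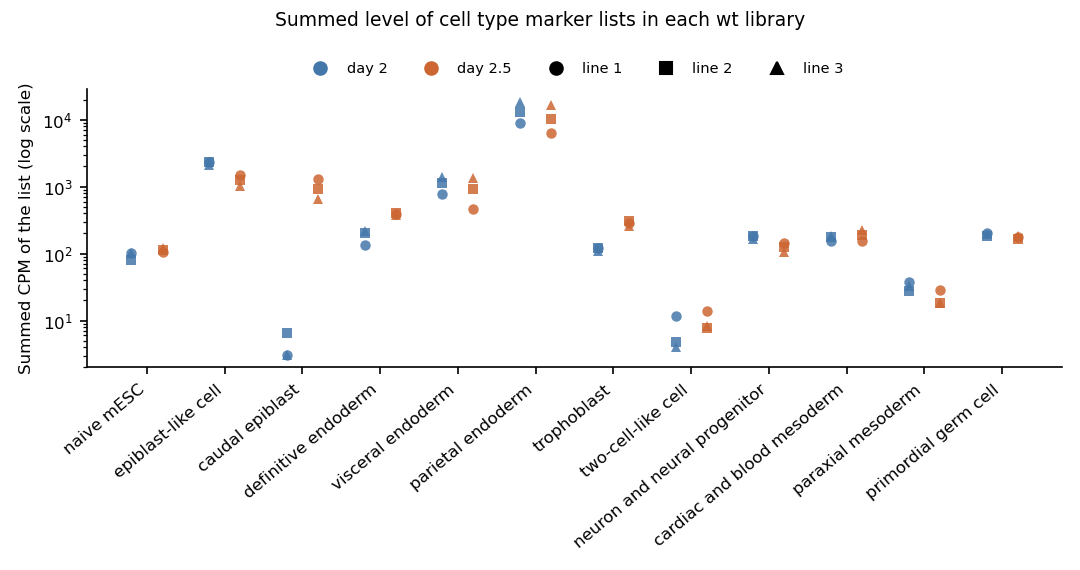
Summed CPM (y axis, log scale) of each cell type marker list (x axis) in each wt library, with day 2 in blue, day 2.5 in orange and the 3 lines by symbol. The caudal epiblast sums move from under 10 CPM to 664 CPM or more, while the parietal endoderm sums order the lines alike on both days.

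To place the change in time, the wt levels at days 0 and 3 were set beside those at days 2 and 2.5, in CPM scaled over all 24 libraries and with no further test, since the comparisons share libraries. Sp5, Dkk4 and Axin2 were highest at day 2.5, with means of 47.5 ± 10.8, 97.5 ± 8.61 and 136 ± 52.9 CPM (SD, n = 3), and stood at 22.0 ± 7.38, 18.4 ± 7.13 and 80.6 ± 27.1 CPM at day 3. At day 0 Axin2 was at 8.49 ± 2.12 CPM. Other genes had a higher mean at day 3 than at day 2.5. Hoxb9 had means of 9.42 ± 2.41 and then 41.1 ± 4.52 CPM, Wnt3a 3.90 ± 2.50 and then 20.6 ± 4.19 CPM, and Fgf8 5.94 ± 4.82 and then 23.2 ± 5.80 CPM. Msgn1 was at 0.410 ± 0.478 and then 8.02 ± 4.24 CPM, above the floor in all lines only by day 3.

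Some genes called lower at day 2.5 had higher means again at day 3. Fgf4 had means of 244 ± 19.0, 155 ± 20.1, 6.49 ± 0.489 and 29.1 ± 8.91 CPM on the 4 days in order. Eno2 stood at 4.12 ± 1.21, 78.4 ± 27.7, 12.9 ± 1.57 and 51.4 ± 17.3 CPM and Adm at 5.15 ± 0.592, 47.6 ± 10.4, 10.7 ± 2.08 and 22.2 ± 8.13 CPM, so that both were lower at day 0 than at day 2. Tdh, by contrast, was at 229.7 ± 8.40, 11.7 ± 2.06, 136 ± 40.4 and 25.4 ± 6.92 CPM, high at day 0 and again at day 2.5. Otx2 and Dnmt3b had still lower means at day 3, going from 6.03 ± 0.794 to 3.09 ± 1.80 CPM and from 413 ± 45.7 to 162 ± 21.2 CPM between days 2.5 and 3. Pou5f1, not called between days 2 and 2.5, had means of 701 ± 168 CPM at day 2.5 and 232 ± 44.5 CPM at day 3.

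**Figure D5:**
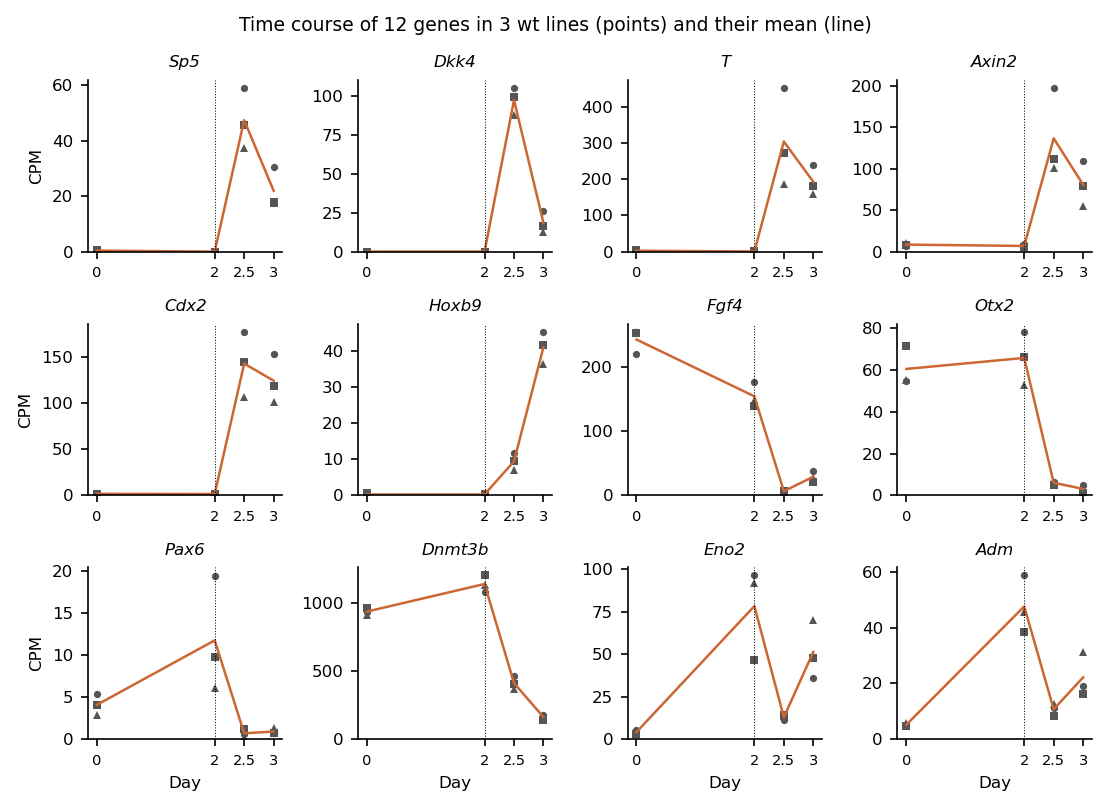
Level of 12 genes (y axes, CPM, each starting at 0) by day of differentiation (x axes) in wt lines 1 (circles), 2 (squares) and 3 (triangles) with their mean (line), and a dotted line at day 2, when CHIR99021 was added. Sp5, Dkk4, T, Axin2 and Cdx2 have their highest mean at day 2.5, Hoxb9 is highest at day 3, and Fgf4, Eno2 and Adm are lower at day 2.5 than at days 2 and 3.

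The 3 het lines, sampled on the same days, gave 6963 called genes of 15577 (44.7%), 21.8% higher and 22.9% lower. Their Wnt target list had 17 higher and 0 lower of 23, their caudal epiblast list 19 higher and 0 lower of 21, and their Hox list 20 higher and 0 lower of 25. A test of the difference between the genotypes in the change from day 2 to day 2.5 called 0 of 16569 genes by edgeR (850 at an unadjusted p under 0.05) and 0 by DESeq2 (926). For Axin2 the log2 fold change was 3.98 ± 0.14 (SE) in het, and for Fgf4 it was -5.27 ± 0.18.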

How the data were processed

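Poly(A) RNA libraries of 3 wt lines at day 2 and day 2.5 were compared, with the 3 het lines and the other days beside them. The authors trimmed reads with Trim Galore 0.4.4, aligned them with HISAT2 2.0.5 to GRCm38.p6 and quantified genes in SeqMonk, and the deposited raw count table holds unnormalized read counts per gene. In further deposited tables the authors gave log2 RPKM for 39 Hox genes and 34 developmental factors (73 genes), which were used only to compare levels between Hox genes per length. In these a gene with 0 counts is listed at a low value set by depth. The deposited group means were not used. All sample columns were matched to labels by title, with 0 left over. The sources used here give neither the strand of each library kit nor the handling of overlapping genes.

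Counts were fitted in edgeR 4.0.16 (R 4.3.3) with trimmed mean of M-values scaling, filterByExpr and the quasi-likelihood test on the 6 libraries, with day as the only term. Adjusted p-values were taken over all 15540 genes tested, and the SE is the log2 fold change over the square root of the F statistic. The genotype difference was the interaction term of a fit of 12 libraries. Intervals and floors (3 counts) cover counting error only, since reads carry no molecular identifiers. Identifiers were matched to GENCODE vM21 (35545 found, 99.6% with the same coordinates) and promoters to RefSeq on GRCm38.p6, both the build of the counts. Motifs were searched on both strands of each RefSeq window, from 250 bases before to 50 after the start, and a gene with several starts counted if any of its windows held the motif.

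Lines are paired across days by design, since the same line was sampled on both. The correlations of same-line deviations from the group means were 0.0826, 0.0075 and 0.1166, and the fit with the line as a block was an alternative. Further alternatives were DESeq2 1.42.0 (test and size factors), limma 3.58.1 voom, the edgeR exact test, a test against a fold of 2, other filters and scalings, thinned counts, all 24 libraries in one fit, and leaving out each line or library. Scripts were tested on simulated data.

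The genes named were chosen by rule. They were a set of developmental genes, the 5 higher and 5 lower by fold change, by p and by difference in CPM among called genes whose groups did not overlap and that averaged 50 or more counts on either day, the 3 higher and 3 lower of each list by fold change among genes that met the same conditions, and the most read uncalled member. Other genes were named after their values were seen. The lists and members were chosen with earlier results of these data known. Some genes of these lists are not reported here by name.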

Additional observations from a re-analysis of the deposited data

How the results depend on the processing

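Of 292 tested genes picked by the rule or named in the text, 231 were called, 159 of them in every alternative in which they were tested except the test against a fold of 2, and 77 in that too. No called gene changed direction in any alternative run. Testing against a fold of 2 called 298 genes (167 higher, 131 lower). In fits that left out a line or a library, 2249 to 4355 genes were called, 1162 to 2130 higher and 1087 to 2225 lower. The lowest counts were without line 2 (2249, of which 1162 higher and 1087 lower) and without line 3 (2545, of which 1188 higher and 1357 lower), and 3875 were called without line 1. Of the 4519 genes, 2156 were also called without line 2 and 2446 without line 3. With the line as a block 4798 genes were called (2376 higher, 2422 lower), of which 4385 were among the 4519, and among the named genes Fgf17, Hoxb7 and Gata3 lost their calls and 7 gained one. Among the lists, the block moved the naive list from 2 to 4 lower genes, the Fgf ligands from 2 to 1 higher gene and the parietal endoderm list from 3 to 10 calls. All other alternatives called 4277 to 6158 genes. The genotype interaction called 0 genes except for 33 (32 higher, 1 lower) with no filter beyond 1 count, 2 without the wt day 2 library of line 1 and 1 without the het day 2.5 library of line 3, over a range of 0 to 2 for fits without a library. Dispersion rested on 3 lines a group, and the library of 7.10 M counts limited what could be read below 0.422 CPM in line 2.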
